A study of Homo sapiens with 16 samples.

Results

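The 4 genes described here, ALPPL2, ALPP, ALPI and ALPL, encode the human alkaline phosphatases, and they were taken by symbol from 26364 genes in 2 count tables, with all 16 libraries. Bulk RNA-seq had been carried out on Ishikawa cells, an endometrial adenocarcinoma line, and on T-47D cells, a breast carcinoma line. Both lines were kept in hormone-deprived, phenol red-free medium for 3 days per the labels, and then received 10 nM 17β-estradiol (E2) for 0 h (vehicle), 2 h, 4 h or 8 h. The study's general culture methods give a longer time in such medium. Each of the 4 time points had 2 replicates in each line, so that every group shared the medium and differed in line and E2 time. Each line is a single cultured tumour line, and neither source states whether replicates came from separate cultures, so that p-values measure the spread between these libraries, which may be technical.

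Alkaline phosphatases are enzymes held on the outer cell surface by a glycosylphosphatidylinositol (GPI) anchor, where they remove phosphate groups at alkaline pH. ALPP is the placental enzyme, ALPPL2 (ALPG in current annotation) the placental-like or germ cell enzyme, ALPI the intestinal enzyme and ALPL the tissue-nonspecific enzyme of bone, liver and kidney. A rise of alkaline phosphatase activity in Ishikawa cells is a classical readout of estrogenic compounds, and the question put to these tables was which of the 4 genes changes its transcript count with E2.

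The 3 tissue-restricted genes lie in a row on chromosome 2, all on the plus strand of hg19, with 11 exons each. ALPP spans chr2:233243434-233247599, ALPPL2 chr2:233271554-233275424 and ALPI chr2:233320835-233325463, with gaps of 23.954 and 45.41 kb between them. ALPL lies apart on chromosome 1, at chr1:21835890-21904903, with 12 exons. The stretches from 150 to 31 bases before the transcription start of the 3 clustered genes are shown because each holds a pair of GGTCA motifs. The sequences are RefSeq promoters from a GRCh38.p14 table that matched GRCh37, the same assembly as hg19, at a single place, and all 4 genes had an entry. Promoter positions count from the start of these entries. For ALPP and ALPI that start lies downstream of the gene start given above, and for ALPPL2 it is the same base. They are chr2:233243311-233243430 for ALPP, chr2:233271404-233271523 for ALPPL2 and chr2:233320713-233320832 for ALPI, all plus strand, 5′ to 3′, and capitals mark GGTCA, the core motif that estrogen receptor dimers bind in inverted pairs.
ALPP: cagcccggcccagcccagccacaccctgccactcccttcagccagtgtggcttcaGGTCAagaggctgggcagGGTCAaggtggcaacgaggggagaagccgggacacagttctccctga
ALPPL2: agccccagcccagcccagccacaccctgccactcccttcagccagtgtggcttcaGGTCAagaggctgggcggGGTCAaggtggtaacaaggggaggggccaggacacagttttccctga
ALPI: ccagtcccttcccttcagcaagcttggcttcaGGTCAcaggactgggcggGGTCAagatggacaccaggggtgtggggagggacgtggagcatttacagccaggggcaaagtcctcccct

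Within windows of 300 bases, from 250 before to 50 after the start, both strands were searched for GGTCA, the SP1 box GGGCGG, the AP-1 site TGANTCA and the full estrogen response element (GGTCA and TGACC with 3 bases between). ALPP and ALPPL2 each held GGTCA at -95 and -77 and ALPI at -118 and -100, all on the plus strand, with the 2 matches starting 18 bases apart in every case. ALPPL2 and ALPI also held an SP1 box that ended just before the downstream match, at -83 and -106, which ALPP lacked. None of the 3 held an AP-1 site or a full element, and their GGTCA pairs were not inverted. Of 35116 promoter windows, 37.4% held GGTCA on either strand, 45.0% an SP1 box, 7.71% an AP-1 site and 0.057% a full element. At least 2 GGTCA on 1 strand occurred in 5.91% of windows, and a pair 18 bases apart in 26 windows (0.074%), a spacing that was searched for after it had been seen in these genes. ALPL had 3 annotated windows, none with GGTCA, and the second of them held 4 SP1 boxes. The clustered promoters are related sequences, with 86.7% identical aligned bases between ALPP and ALPPL2, 70.3% between ALPP and ALPI and 72.5% between ALPPL2 and ALPI. A match is a description of letters in this window, and receptor binding was not analysed here.

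**Figure D1:**
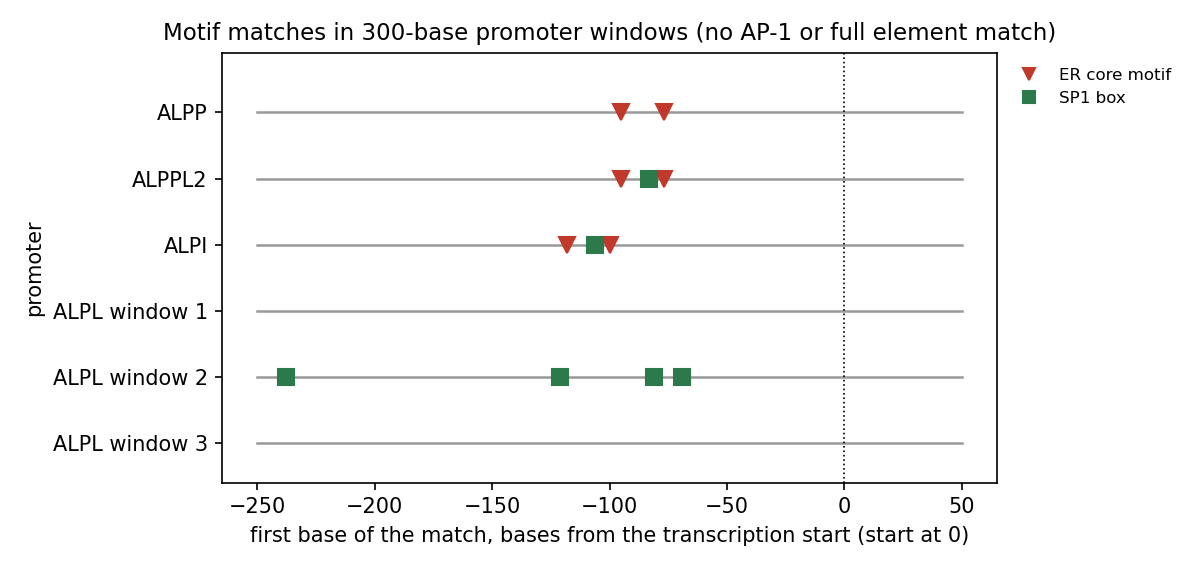
Motif matches along the promoter windows of the 4 genes, with the horizontal axis in bases from the transcription start and 1 line per window. Triangles (GGTCA, named ER core motif in the legend) sit in pairs 18 bases apart in ALPP, ALPPL2 and ALPI, without inversion. They are missing from the 3 ALPL windows, and squares mark SP1 boxes.

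The libraries held 41177912 to 58918642 counts in Ishikawa cells and 41223813 to 64148903 in T-47D cells. Between 71.2% and 74.6% of counts from 1 to 10 were even numbers, so some results on low counts are also given with every count divided by 2. Values are given as counts and as CPM, counts scaled to a common library size with edgeR's TMM factors. In Ishikawa cells the 4 h and 8 h libraries were about as far apart within labels as across them. The root mean square log2 difference was 0.391 between the 4 h replicates and 0.353 between the 8 h replicates. Across these labels it ran from 0.329 (4 h replicate 2 and 8 h replicate 1) to 0.378 (4 h replicate 2 and 8 h replicate 2). The labels were kept, and values over the 4 libraries as 1 group are given as well. By summed level the lines carried their own markers. The 6 endometrial markers, such as PAX8 and SOX17, summed to 780 to 865 CPM in Ishikawa and 1.29 to 2.32 CPM in T-47D libraries. The 6 luminal breast markers, such as GATA3 and TRPS1, summed to 3265 to 3892 CPM in T-47D and 31.7 to 42.8 in Ishikawa libraries. Only 4 of these 6 averaged over 1 CPM in T-47D cells. There TFAP2B time means were 0.55 to 1.05 CPM, and those of ANKRD30A at most 0.06 CPM. In Ishikawa cells TRPS1 made up most of the luminal sum, at 31.4 to 39.6 CPM. Both lines responded to E2, with the progesterone receptor gene PGR higher at 8 h by 3.75 ± 0.18 (log2 fold change ± SE, adjusted p = 2.48e-09) in Ishikawa and by 1.09 ± 0.04 (adjusted p = 6.51e-13) in T-47D cells. Of the other check genes, GREB1 and TGFA also rose in both lines. TFF1 had a mean count of 0 in Ishikawa cells and rose by 1.70 ± 0.29 in T-47D cells. ESR1 changed by -0.45 ± 0.06 in Ishikawa and by 0.29 ± 0.04 in T-47D cells at 8 h.

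Of the 4 genes, the 3 clustered genes rose in Ishikawa cells by 2 h and stayed high to 8 h, and ALPL did not pass the test at any time. They were called by edgeR's quasi-likelihood F-test with a Benjamini-Hochberg adjusted p under 0.05 over 15787 genes. Among all genes, 4.35% passed at 2 h (2.61% higher, 1.74% lower), 14.3% at 4 h (7.66% higher, 6.6% lower) and 22.1% at 8 h (12% higher, 10.1% lower).

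ALPPL2, the placental-like enzyme gene, had the most counts of the 3. Replicates 1 and 2 held 86 and 82 counts before E2. After 2 h they held 281 and 378, after 4 h 1139 and 634, and after 8 h 857 and 1240. Scaled for depth, these were 1.87 and 1.76 CPM, then 6.64 and 6.91, then 28.2 and 15.4, and then 14.6 and 28.3 CPM. All 6 treated libraries were above both 0 h libraries, and the 4 late libraries were all above both 2 h libraries. How many of all genes separate in this way was not counted, so this is a description. ALPL, which did not pass, also lay above both 0 h libraries at 2 h. The log2 fold change against 0 h was 1.90 ± 0.34 (SE, n = 2 per time point; edgeR adjusted p = 0.00265) at 2 h, 3.58 ± 0.32 (adjusted p = 2.11e-06) at 4 h and 3.55 ± 0.32 (adjusted p = 2.23e-06) at 8 h. The rise was 3.73-fold at 2 h and 11.7-fold at 8 h, and ALPPL2 ranked 67, 20 and 22 from the top of 15787 genes by fold change. The 2 h call was lost without replicate 2 of 0 h (1.86, adjusted p = 0.121), where a single 0 h library was left.

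ALPP, the placental enzyme gene, started lower and rose by a larger factor. The 0 h replicates held 23 and 12 counts. Counts were 144 and 156 after 2 h, 486 and 299 after 4 h, and 346 and 495 after 8 h. The same libraries gave 0.500 and 0.258 CPM, then 3.40 and 2.85, then 12.1 and 7.24, and then 5.87 and 11.3 CPM. Time groups did not overlap between 0 h, 2 h and the late libraries, again a description without a count over all genes. The log2 fold change was 3.03 ± 0.42 (edgeR adjusted p = 0.000250) at 2 h, 4.66 ± 0.39 (adjusted p = 9.54e-07) at 4 h and 4.49 ± 0.39 (adjusted p = 1.44e-06) at 8 h, or 8.19-fold, 25.3-fold and 22.4-fold, at ranks 19, 11 and 11. Because only 35 counts lay behind the 0 h level, the ratio of pooled counts at 4 h had a 95% counting interval of 18.1 to 36.8, or 15.4 to 42.2 with every count divided by 2.

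ALPI, the intestinal enzyme gene, went from hardly any counts to a low but steady level. The 0 h replicates held 0 and 2 counts, those after 2 h 33 and 69, those after 4 h 115 and 110, and those after 8 h 134 and 125. In CPM these were 0 and 0.0429, then 0.779 and 1.26, then 2.85 and 2.66, and then 2.28 and 2.85. Every treated library lay above both 0 h libraries, again a description without a count over all genes. With 2 counts at 0 h, the ratio of pooled counts was 48.7 (95% counting interval 13.1 to 408) at 2 h, 128 (34.9 to 1061) at 4 h and 117 (32.0 to 970) at 8 h. With counts divided by 2 these intervals widened to 8.36 to 1960, 22.4 to 5066 and 20.7 to 4666. The fitted log2 fold changes of 5.42 ± 0.62, 6.83 ± 0.55 and 6.72 ± 0.55 depend on the prior count and give no bound, and the edgeR adjusted p-values were 3.91e-05, 6.83e-07 and 8.34e-07. By fitted value ALPI ranked 6, 2 and 3 of the 15787 genes. Without replicate 1 of 0 h the fitted values were 4.51, 5.92 and 5.81, and without replicate 2, which left a 0 h library at 0, they were 8.60, 10.01 and 9.90, with all 3 calls kept. These intervals and all others on counts cover counting error only.

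ALPL, the tissue-nonspecific enzyme gene, was expressed at every time and did not pass. Its counts were 170 and 156 before E2, then 165 and 216 after 2 h, 141 and 162 after 4 h, and 211 and 159 after 8 h. In CPM all 8 libraries lay between 3.35 and 3.95. The log2 fold change was 0.16 ± 0.17 (edgeR adjusted p = 0.695) at 2 h, 0.08 ± 0.17 (adjusted p = 0.809) at 4 h and 0.03 ± 0.17 (adjusted p = 0.907) at 8 h. The pooled count ratios had 95% counting intervals of 0.960 to 1.30, 0.899 to 1.24 and 0.880 to 1.19. With every count divided by 2 they were 0.898 to 1.38, 0.843 to 1.33 and 0.825 to 1.27. Both sets leave out the folds measured for the other 3 genes.

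**Figure D2:**
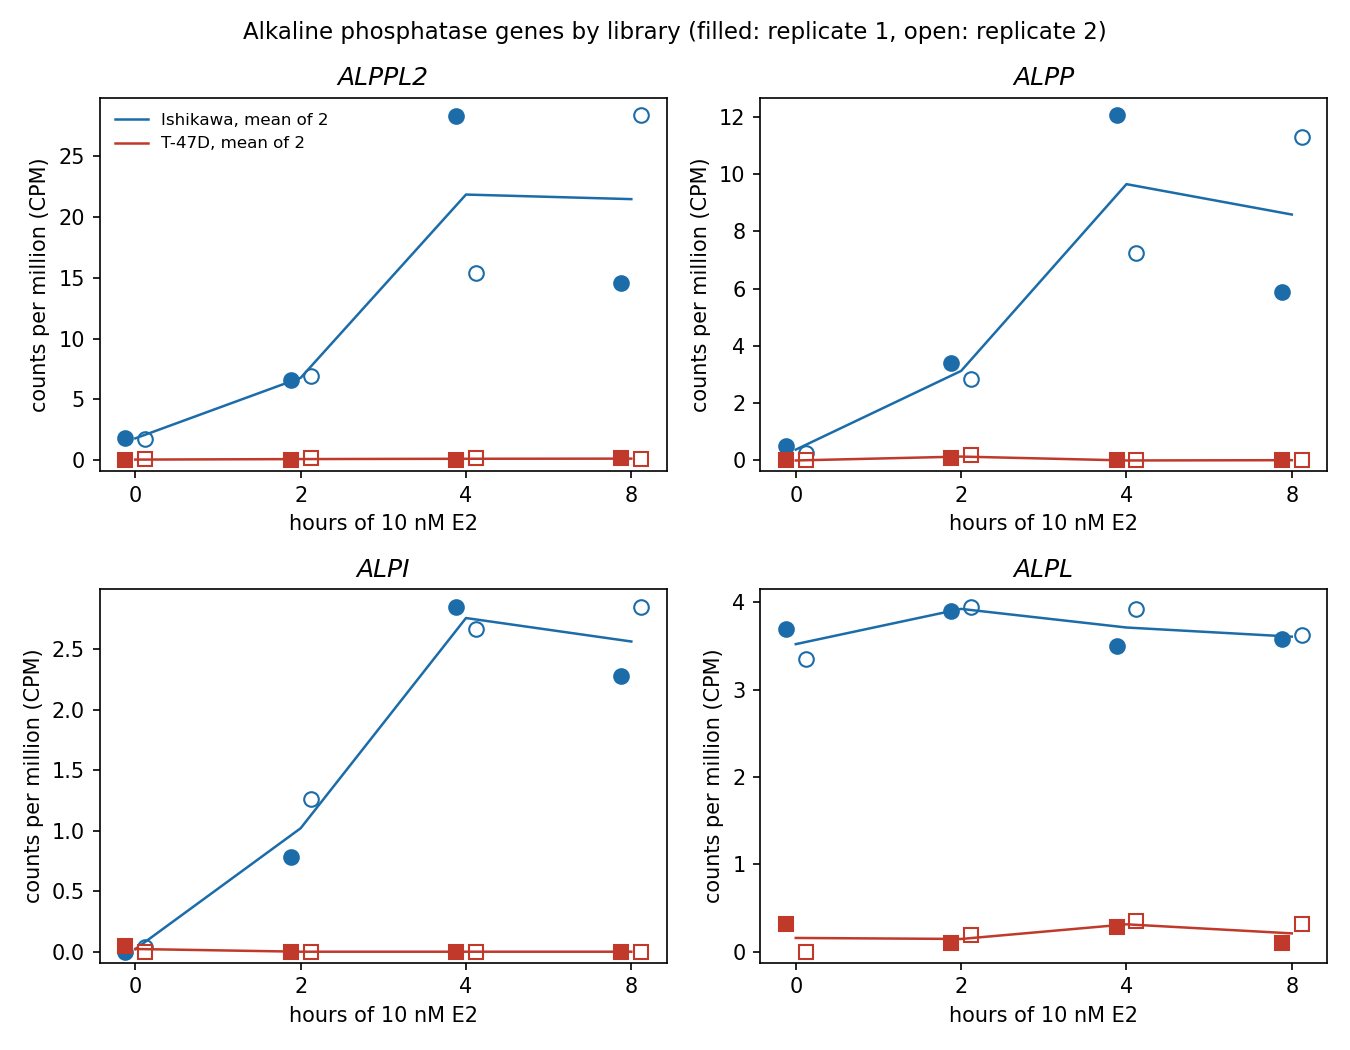
CPM of each gene in every library, with hours of 10 nM E2 on the horizontal axis (not to scale) and a separate vertical scale per panel. Circles are Ishikawa and squares T-47D libraries, filled for replicate 1 and open for replicate 2, and lines join means of 2. ALPPL2 reached 14.6 to 28.3 CPM late in Ishikawa cells, ALPL stayed between 3.35 and 3.95 CPM, and the T-47D values lay close to 0.

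The rise was not complete at 2 h. From 2 h to 4 h ALPPL2 rose by 1.68 ± 0.27 on the log2 scale (edgeR adjusted p = 0.00327), ALPP by 1.63 ± 0.29 (adjusted p = 0.00652) and ALPI by 1.41 ± 0.30 (adjusted p = 0.0198), in a comparison where 2.39% of all genes passed (1.18% higher). From 2 h to 8 h the changes were 1.65 ± 0.27 (adjusted p = 0.00394), 1.45 ± 0.29 (adjusted p = 0.0141) and 1.30 ± 0.29 (adjusted p = 0.0301), where 2.24% passed (1.06% higher). ALPL differed from 2 h by -0.08 ± 0.17 at 4 h and -0.12 ± 0.16 at 8 h, and did not pass. The mean 2 h level was 31.3% of the mean over the 4 late libraries for ALPPL2, 34.3% for ALPP and 38.4% for ALPI.

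Between 4 h and 8 h none of the 4 genes passed with edgeR or DESeq2 or had an unadjusted p under 0.05, and over all genes only 0.0127% passed. The log2 differences were -0.03 ± 0.25 for ALPPL2, -0.18 ± 0.27 for ALPP, -0.11 ± 0.27 for ALPI and -0.04 ± 0.17 for ALPL. The spread within a late time point was uneven between genes. ALPPL2 and ALPP were high in 4 h replicate 1 and 8 h replicate 2 and low in 4 h replicate 2 and 8 h replicate 1, with the highest late library 1.95 and 2.05 times the lowest, against 1.25 for ALPI and 1.12 for ALPL. With the 4 late libraries as 1 group, the log2 fold change against 0 h was 3.57 ± 0.29 (edgeR adjusted p = 3.08e-07) for ALPPL2, 4.58 ± 0.36 (adjusted p = 1.97e-07) for ALPP and 6.77 ± 0.50 (adjusted p = 9.21e-08) for ALPI. Against 2 h the same group was higher by 1.67 ± 0.24 (adjusted p = 0.000605), 1.54 ± 0.26 (adjusted p = 0.00215) and 1.36 ± 0.25 (adjusted p = 0.00538).

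Single libraries decided some of the steps after 2 h. Without 4 h replicate 1, the step from 2 h to 4 h was 1.18 (edgeR adjusted p = 0.0519) for ALPPL2, 1.21 (adjusted p = 0.112) for ALPP and 1.36 (adjusted p = 0.130) for ALPI. The ALPP step to 4 h was also lost without 2 h replicate 2, and the ALPI step without 2 h replicate 1. From 2 h to 8 h, ALPP and ALPI lost the call without either 2 h replicate or without 8 h replicate 2, while ALPPL2 kept it without each library in turn. DESeq2 did not call the ALPP step from 2 h to 8 h either (adjusted p = 0.0708).

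**Figure D3:**
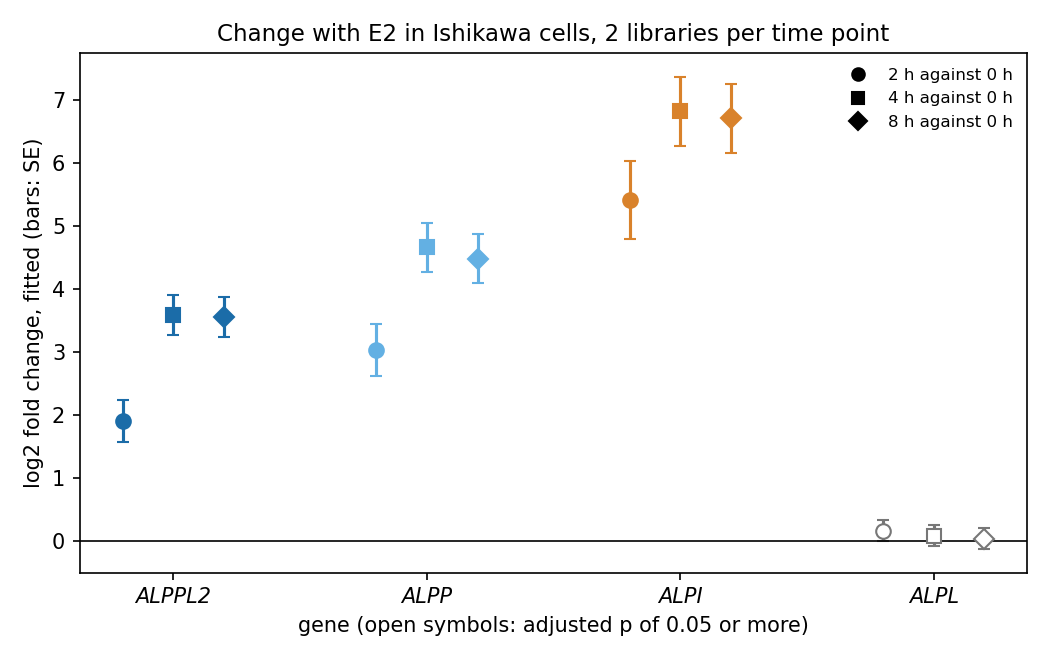
Fitted log2 fold change of the 4 genes in Ishikawa cells at 2 h, 4 h and 8 h against 0 h, with bars of 1 SE from 2 libraries per time point. The 3 clustered genes lie at or above 1.90 throughout, ALPL lies between 0.03 and 0.16, and the ALPI values rest on 2 counts at 0 h.

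Divided by transcript length, the order of the genes changed with E2. At 0 h ALPL led with 1.39 ± 0.10 CPM per kb (SD, n = 2), followed by ALPPL2 at 0.728 ± 0.031, ALPP at 0.137 ± 0.062 and ALPI, with 0 in the first library and 0.0132 in the second. At 2 h ALPPL2 led with 2.72 ± 0.08 CPM per kb, ALPL followed at 1.55 ± 0.02, ALPP at 1.14 ± 0.14 and ALPI at 0.315 ± 0.105. Over the 4 late libraries ALPPL2 ranged from 5.84 to 11.4 CPM per kb, ALPP from 2.13 to 4.38, ALPL from 1.38 to 1.55 and ALPI from 0.702 to 0.880. Neighbours in these orders did not overlap at any time.

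Per transcript length, ALPPL2 made up most of the gain, although the split of reads between ALPP and ALPPL2 is uncertain, as described below. The summed level of the 4 genes went from 2.39 and 2.13 CPM per kb at 0 h to 5.67 and 5.76 after 2 h, 17.97 and 11.2 after 4 h, and 10.1 and 17.8 after 8 h. Of the mean gain over 0 h, ALPPL2 made up 57.6% at 2 h, 65.2% at 4 h and 67.4% at 8 h. ALPP made up 28.9%, 27.3% and 25.5%, ALPI 8.92%, 6.86% and 6.72%, and ALPL 4.60% and less. These are transcript levels, and neither enzyme protein nor activity was measured here.

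As a share of the 4 genes within a library, ALPL went from 61.0% and 61.9% at 0 h to between 7.67% and 14.0% in the late libraries while its own CPM stayed level. ALPPL2 went from 31.4% and 33.1% to between 55.2% and 63.9%, and ALPP from 7.60% and 4.38% to between 21.1% and 24.4%. ALPI went from 0 and 0.621% to between 4.90% and 7.37%. The shares are a description with no test. The ratio of ALPPL2 to ALPP per length was 4.13 and 7.55 at 0 h and between 2.16 and 2.77 in the 6 treated libraries, with 23 and 12 ALPP counts behind the 0 h ratios.

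**Figure D4:**
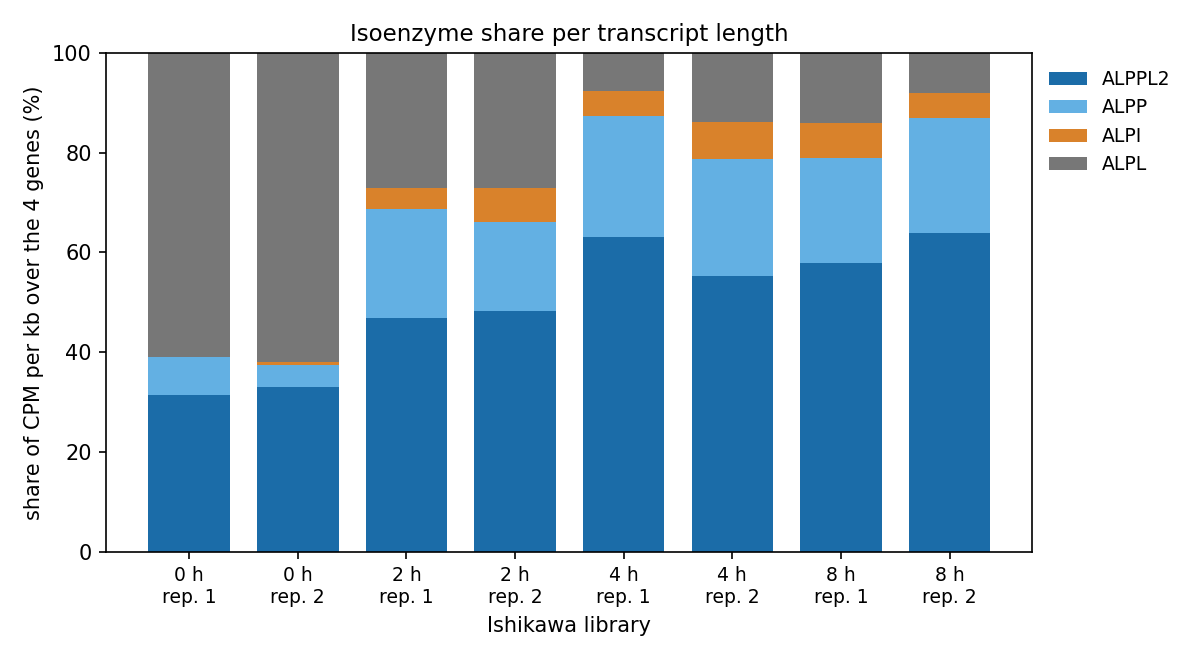
Stacked shares of CPM per kb over the 4 genes in each Ishikawa library, in percent. ALPL (grey) makes up 61.0% and 61.9% at 0 h and at most 14.0% late, and ALPPL2 (dark blue) is the largest share in all 6 treated libraries.

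The genes are close paralogs, which bears on how reads could be split between them. GENCODE coding sequences of ALPP and ALPPL2 were 97.8% identical, with 35 differing bases in 1599 aligned, ALPP and ALPI 89.7%, ALPPL2 and ALPI 89.5%, and ALPL shared 67.4% to 67.9% with the others. Over whole transcripts, 27.4% of 50-base windows of ALPP and 29.3% of ALPPL2 occurred word for word in another of the 4, mostly in each other, against 1.19% for ALPI and 0 for ALPL. With windows of 150 bases the shares were 7.64%, 8.49%, 0 and 0. Read length and the treatment of reads with several alignments are not given in the sources used here, so the split between ALPP and ALPPL2 is uncertain to that extent. Together with ALPI they summed to 2.37 and 2.06 CPM at 0 h, 10.8 and 11.03 at 2 h, and 22.7 to 43.2 in the late libraries. ALPP also overlaps an antisense long noncoding RNA (chr2:233244345-233246384, minus strand) with no entry of its own in the tables. The strand setting of the counting is not given, so reads of the 2 cannot be told apart. ALPL overlaps a protein-coding gene model without a symbol on its own strand (chr1:21873897-21880495), also without an entry, and strand could not separate their reads.

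**Figure D5:**
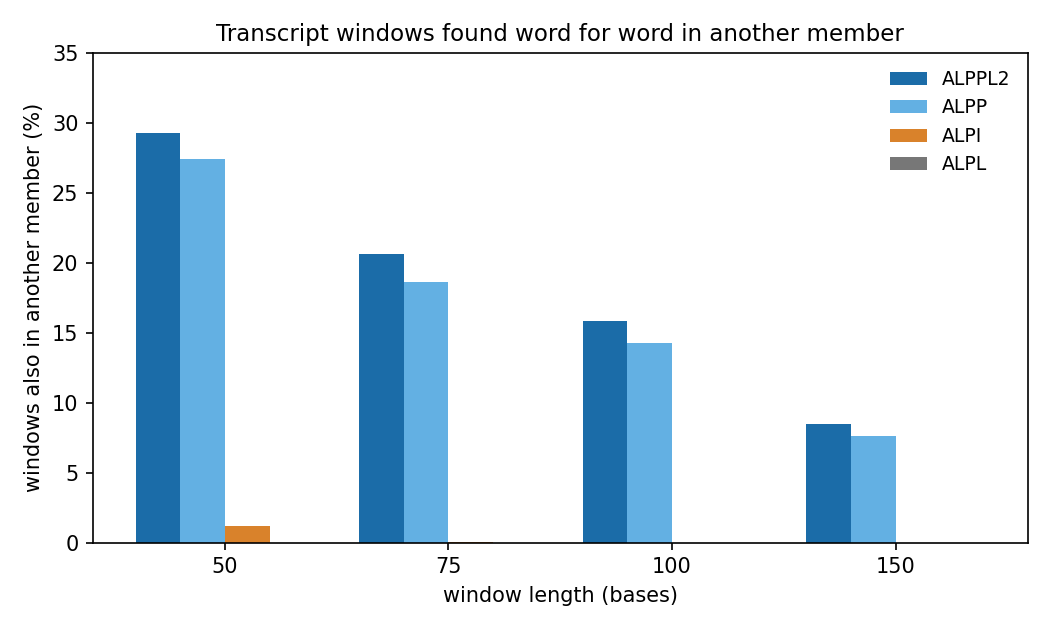
Share of all windows of 50, 75, 100 and 150 bases in each transcript that also occur in another of the 4 genes, in percent. ALPPL2 and ALPP fall from 29.3% and 27.4% at 50 bases to 8.49% and 7.64% at 150, ALPI is at 1.19% or less, and ALPL is at 0.

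In T-47D cells the 4 genes were at or near 0 throughout. ALPPL2 held 2 and 4 counts before E2, then 3 and 7 after 2 h, 3 and 12 after 4 h, and 11 and 4 after 8 h. For ALPL the pairs were 14 and 0, 5 and 8, 18 and 18, and 5 and 16. ALPP held 4 and 8 counts at 2 h and 1 count in all over the other 6 libraries. ALPI held 2 counts in all, both in 0 h replicate 1. Pooled over the 8 libraries this is 0.117 CPM for ALPPL2 (95% counting interval 0.0858 to 0.156), 0.214 for ALPL (0.171 to 0.265), 0.0331 for ALPP (0.0176 to 0.0566) and 0.00509 for ALPI (0.000617 to 0.0184). These intervals were not repeated with counts divided by 2.

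Only ALPPL2 and ALPL had enough counts to be tested in T-47D cells, and neither passed at any time or had an unadjusted p under 0.05, with edgeR. Among all genes 9.3% passed at 2 h (4.9% higher, 4.4% lower), 21.5% at 4 h (11.1% higher, 10.4% lower) and 29.7% at 8 h (15.4% higher, 14.3% lower). Nor did either pass between later times, where 3.4% passed from 2 h to 4 h, 16.8% from 2 h to 8 h and 3.42% from 4 h to 8 h. DESeq2 gave them no adjusted p. ALPPL2 differed from 0 h by 0.64 ± 1.06, 0.88 ± 0.99 and 1.07 ± 0.99 on the log2 scale (lowest edgeR adjusted p = 0.463), and ALPL by -0.17 ± 0.93, 0.93 ± 0.79 and 0.37 ± 0.86 (lowest adjusted p = 0.452). A change was not detectable at these counts, although the libraries were as deep as those of Ishikawa cells. The ALPL values turn on the 0 h replicates with 14 and 0 counts. Without replicate 1 of 0 h the ALPL change was 6.97 (adjusted p = 0.0205) at 4 h and 6.40 (adjusted p = 0.0390) at 8 h, against a single library at 0.

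Before E2 the lines already differed. In the fit over all 16 libraries, T-47D was lower than Ishikawa at 0 h for ALPPL2 (log2 difference -4.58 ± 0.71, edgeR adjusted p = 6.50e-06) and ALPL (-4.35 ± 0.47, adjusted p = 3.49e-08), in a comparison where 81.9% of all genes passed. Both calls held without each library in turn, but the sizes turned on the T-47D 0 h libraries: without replicate 1 the difference was -10.37 for ALPL, against a library at 0, and -4.12 for ALPPL2, and without replicate 2 it was -3.40 and -5.18. ALPP passed as well (edgeR adjusted p = 0.000542), with 35 counts in Ishikawa against 0 in T-47D. Set against a floor of 3 counts over the 2 T-47D libraries, the Ishikawa level was 10.9-fold. This ratio leaves out counting error and was not repeated with counts divided by 2. ALPI, at 2 counts in each line, did not pass (adjusted p = 0.924). Line, culture and handling cannot be told apart.

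The response itself was compared between lines as the interaction of line and time. ALPI passed at 4 h (log2 difference of T-47D minus Ishikawa -10.17, edgeR adjusted p = 0.0302) and 8 h (-10.07, adjusted p = 0.0235) and not at 2 h (-8.75, adjusted p = 0.120), where 2.67%, 6.03% and 10% of all genes passed at 2 h, 4 h and 8 h. These values rest on 2 counts at 0 h in each line and on T-47D libraries at 0. Both calls were lost with counts divided by 2 (edgeR adjusted p = 0.0896 and 0.0692). ALPI had too few counts to be tested in T-47D cells alone and entered this fit through its treated Ishikawa libraries. As a level over the 6 treated libraries, ALPI held 586 counts in Ishikawa against 0 in T-47D cells. Set against a floor of 3 counts over the T-47D group, the Ishikawa level was 212-fold. This ratio leaves out counting error and was not repeated with counts divided by 2, so it is no firm bound. ALPPL2 gave -1.25 ± 1.47, -2.71 ± 1.52 and -2.48 (lowest adjusted p = 0.356) and ALPL -0.32 ± 0.84, 0.86 ± 0.71 and 0.32 ± 0.76 (lowest adjusted p = 0.582). ALPP could not be estimated with T-47D at 0 counts at 0 h and 4 h. Without a filter on low counts ALPPL2 passed at 4 h (adjusted p = 0.0204) and 8 h (adjusted p = 0.0334), so its call turned on the filter, and a difference in response was not detectable for ALPP or ALPL at these counts.

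Markers of the tissues these enzymes are named for were mostly at or near 0 in Ishikawa cells. Of 5 placental markers in the tables, among them CGA and PSG1, none averaged over 1 CPM in Ishikawa cells, and they summed to between 0 and 0.153 CPM per library. Of 5 intestinal markers only CDX2, a transcription factor of gut epithelium, averaged over 1 CPM. CDX2 rose from 4.01 CPM at 0 h to 6.07 CPM at 8 h (0.60 ± 0.16, edgeR adjusted p = 0.0133). Its change was 0.52 ± 0.16 at 2 h (edgeR adjusted p = 0.0865) and 0.67 ± 0.16 at 4 h (adjusted p = 0.0101). The part of CDX2 in the result was not tested. CDX1 and the brush border gene SI were at 0 in all Ishikawa libraries, and the 5 intestinal markers summed to between 4.10 and 7.27 CPM. The 6 bone and liver markers summed to at most 0.478 CPM in Ishikawa cells. In T-47D cells they summed to 127 to 144 CPM, nearly all of it SERPINA1 (131 CPM at 0 h), which encodes alpha-1-antitrypsin, while intestinal and placental markers summed to at most 0.125 and 0.171 CPM. The sum of 6 leukocyte and fibroblast markers was 158 to 286 CPM in Ishikawa cells, most of it COL1A1, which fell from 264 CPM at 0 h to 174 CPM at 8 h (-0.60 ± 0.10, edgeR adjusted p = 0.000823). Of the leukocyte markers in Ishikawa cells, CD3E was at 0 and PTPRC averaged at most 0.102 CPM at any time. CD68 was not at the floor, with time means of 1.774 to 2.195 CPM. Time means of the fibroblast marker COL3A1 were 4.111 to 7.201 CPM. In bulk samples, a change in the number of expressing cells and a change in transcript per cell cannot be told apart.

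Across the 8 Ishikawa libraries, log2 CPM of the clustered genes ran together, with Pearson's r of 0.983 between ALPPL2 and ALPP, 0.957 between ALPP and ALPI and 0.949 between ALPPL2 and ALPI, and 0.130 to 0.291 with ALPL. These are descriptions over libraries that share the E2 times. Of 13181 genes with a mean of at least 50 counts, the 5 most like ALPPL2 were IL1R2, a decoy receptor for interleukin-1 (r = 0.999), CILP, a cartilage matrix protein, CKB, the brain-type creatine kinase, QSOX1, a sulfhydryl oxidase, and the amino acid transporter gene SLC7A5. These had log2 fold changes at 8 h between 0.83 and 2.45. The 5 most like ALPP were the membrane-type metalloproteinase gene MMP17 (r = 0.996), MYBPC2, DYNLL2, USP7 and PGR (r = 0.992). Log2 fold changes of these at 8 h ran from 0.29 for DYNLL2 to 3.75 for PGR, so a high r did not require a large change. For ALPI the 5 genes were the growth factor gene NRTN (r = 0.995), DHRS3, a retinaldehyde reductase, CACNA1I, CBFA2T3 and KAZN. Their fold changes at 8 h lay between 1.89 and 4.06 on the log2 scale. No gene was in more than 1 of the 3 lists.

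The genes around the 4 members and those of related pathways were counted against all genes, of which 13.2% rose and 11.1% fell at 1 time or more in Ishikawa cells. The shares for T-47D were 17.6% and 16.7%. Of 13 neighbours on chromosome 2, 12 were tested in Ishikawa cells, and 2 rose and none fell, close to that share, with a median log2 fold change of 0.06 at 8 h against -0.01 over all genes. NPPC, which encodes C-type natriuretic peptide and lies 452 kb before ALPP, went from 0.649 CPM at 0 h to 4.01, 6.42 and 5.87 CPM, a log2 change of 2.62 ± 0.26, 3.30 ± 0.25 and 3.18 ± 0.25 (edgeR adjusted p at 8 h = 5.62e-07). PRSS56, a serine protease gene 59.6 kb beyond ALPI, averaged 14.8 counts and is named after its values were seen. It passed at 4 h (2.64 ± 0.69, adjusted p = 0.0195) and 8 h (3.04 ± 0.66, adjusted p = 0.00438). In T-47D cells, 1 of 9 tested neighbours rose and 2 fell. NPPC, at 11.8 counts on average and named after its values were seen, rose at 2 h (2.45 ± 0.66, edgeR adjusted p = 0.0234; DESeq2 gave no adjusted p), and EFHD1 and NGEF fell by 0.35 ± 0.04 and 0.39 ± 0.07 at 8 h.

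Of 6 genes around ALPL on chromosome 1, 5 were tested in each line, too few to set apart from the share over all genes. In Ishikawa cells ECE1, the endothelin-converting enzyme gene 164 kb from ALPL, rose by 0.53 ± 0.06 at 8 h (edgeR adjusted p = 1.69e-05), and HSPG2, which encodes perlecan, fell by 0.47 ± 0.09 (adjusted p = 0.00171). In T-47D cells ECE1 rose by 0.56 ± 0.06 and HSPG2 and RAP1GAP fell by 0.25 ± 0.08 and 0.68 ± 0.15.

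GPI anchor genes, which place alkaline phosphatases on the cell surface, had fold changes far smaller than the 3 genes. Of 28 tested genes of GPI anchor synthesis and remodelling, 3 rose and 3 fell in Ishikawa cells, close to the 13.2% and 11.1% of all genes, with a median of -0.01 at 8 h. PIGH rose by 0.46 ± 0.11 at 4 h, PIGW by 0.37 ± 0.09 at 8 h, PIGZ fell by 0.67 ± 0.19 at 4 h and PIGQ fell by 0.24 ± 0.08 at 8 h. In T-47D cells 3 of 28 rose and 2 fell, against 17.6% and 16.7% of all genes. PIGW rose by 0.84 ± 0.07 at 8 h, and PIGH, PIGK and PIGV changed by 0.32 ± 0.08, 0.28 ± 0.08 and -0.34 ± 0.07 at that time.

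Genes that handle the substrates and products of these enzymes were counted as well. Of 14 genes for phosphate and pyrophosphate, 3 rose and 3 fell in Ishikawa cells, against 13.2% and 11.1% of all genes. PHOSPHO1, a phosphatase of bone mineralization, went from 2.23 CPM to 6.62, 6.58 and 5.99 CPM, or 1.57 ± 0.21, 1.56 ± 0.22 and 1.43 ± 0.21 on the log2 scale. The ectonucleotidase gene ENTPD1 rose by 0.40 ± 0.06 at 8 h, ENTPD2 fell by 0.53 ± 0.10 at 8 h, and NT5E, which makes adenosine from AMP, fell by 0.49 ± 0.15 at 4 h. In T-47D cells 4 of 13 rose and 5 fell, against 17.6% and 16.7% of all genes, among them the pyrophosphate exporter gene ANKH (0.97 ± 0.16 at 4 h), the phosphate transporter gene SLC20A1 (0.52 ± 0.05 at 8 h), ENPP1 (-0.49 ± 0.05 at 8 h) and ENPP3 (-0.77 ± 0.25 at 8 h). Of 4 vitamin B6 genes, a pathway in which alkaline phosphatase frees pyridoxal, PDXK fell by 0.32 ± 0.05 and PDXP rose by 0.22 ± 0.06 at 4 h in Ishikawa cells. For T-47D, PDXP rose by 0.32 ± 0.10 at 8 h and PDXK fell by 0.15 ± 0.04 at 4 h. Of 6 acid phosphatase genes none rose and 1 fell in each line. Neither of these short lists can be set apart from the share over all genes. ACPP fell by 0.86 ± 0.28 at 8 h in Ishikawa cells and ACP2 by 0.17 ± 0.05 in T-47D cells, also at 8 h.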

How the data were processed

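The authors treated both lines with E2, made directional poly(A) libraries, and used HISAT2 (hg19), SAMtools and featureCounts, the last with the UCSC Known Genes annotation. They deposited raw counts per gene for 26364 genes in 1 table per line, with no normalization. Versions, strand setting, read pairs and reads with several alignments are not given in the sources used here, and DESeq2 is named in the submitters' processing notes. Samples were grouped by the line and time in their labels, and no 2 replicates held identical values.

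On the deposited counts, edgeR 4.0.16 was run under R 4.3.3 (TMM, filterByExpr, quasi-likelihood F-test, time as a factor, no replicate block). This tested 15787 genes in Ishikawa cells, 15594 in T-47D cells and 17090 in a fit of all 16 libraries by line and time, with Benjamini-Hochberg adjustment over all of them. Fold changes are log2, and a standard error is the log2 fold change divided by the root of its F statistic. Lengths, positions and coding sequences came from GENCODE v44 on GRCh37, and sequences were aligned with Biopython 1.88. Values per kb thus divide counts made on UCSC Known Genes by GENCODE transcript lengths. The script was tested on simulated data. Alternatives were DESeq2 1.42.0, no filter, RLE scaling by median ratios, a minimum of 10 counts per gene in each library, a replicate block, only the time points compared, each library left out, 4 h and 8 h as 1 group, and counts divided by 2. Genes were named by a rule, which took the 4 members. Per list and line it took at most 4 genes with the largest changes, among those that passed and averaged 50 counts or more. It also took the 5 genes most like each member that passed, and GREB1, PGR, TGFA, TFF1 and ESR1 as E2 checks. Outside this rule, PRSS56, NPPC in T-47D cells and single marker genes are named for their values. The members, lists and rule were chosen with earlier results of these data known. Aligned coding sequence of the paralogs is not reported here.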

Additional observations from a re-analysis of the deposited data

Results flagged for a closer look

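The difference in E2 response between the lines passed the test for ALPI at 4 h (T-47D minus Ishikawa, log2 difference -10.17, edgeR adjusted p = 0.0302) and at 8 h (-10.07, adjusted p = 0.0235). ALPI was higher than at 0 h in all 6 treated Ishikawa libraries and was at 0 in all 6 treated T-47D libraries. How many of all genes separate in this way was not counted. The sizes rest on 2 counts at 0 h in each line, so they are no estimate of a fold difference. ALPI had too few counts to be tested in T-47D cells alone and entered this fit through its treated Ishikawa libraries. Both calls were lost with counts divided by 2 (edgeR adjusted p = 0.0896 and 0.0692). Without T-47D 0 h replicate 1 the values were -6.83 and -6.72, against a library at 0. The calls are therefore not firm.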

How the results depend on the processing

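All calls of ALPPL2, ALPP and ALPI against 0 h in Ishikawa cells kept their direction and side under the alternatives that left out no library. DESeq2 lost the ALPP step from 2 h to 8 h (1.46, adjusted p = 0.0708). The ALPI interaction at 2 h passed with DESeq2 (-8.10) and without a filter (-8.76), and with counts divided by 2 it no longer passed at 4 h (-9.15) and 8 h (-9.04). The ALPPL2 interaction passed without a filter at 4 h (-2.72) and 8 h (-2.50). DESeq2 called 1 chromosome 2 neighbour higher for Ishikawa and 0 for T-47D, because it gave no adjusted p to PRSS56 and NPPC respectively, so these are not lost calls. The stricter filter of 10 counts gave no value for genes it removed. The cause of the other changes was not tested.

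The replicate block changed no call of the 4 genes. It gave 1.90, 3.59 and 3.55 for ALPPL2 against 0 h in Ishikawa cells, 3.04, 4.66 and 4.50 for ALPP, and -10.18 and -10.08 for the ALPI interaction at 4 h and 8 h. Same-numbered libraries did not deviate together (correlations of -0.115 to 0.0595). Whether the numbers mark paired cultures is not stated, and a lack of shared deviation cannot settle it.

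With each library left out, where a lone replicate was taken to vary like the other groups, log2 values spanned these ranges. In Ishikawa cells ALPI gave 4.51 to 8.60, 5.92 to 10.01 and 5.81 to 9.90 against 0 h. ALPPL2 gave 1.86 to 1.95 at 2 h against 0 h, 1.18 to 2.06 from 2 h to 4 h and -0.58 to 0.48 from 4 h to 8 h. ALPP gave 1.21 to 1.95 from 2 h to 4 h, 0.92 to 1.86 from 2 h to 8 h and -0.71 to 0.24 from 4 h to 8 h. For those steps ALPI gave 1.13 to 1.82, 1.02 to 1.71 and -0.28 to 0.0529. ALPL gave -0.0073 to 0.15 at 4 h and -0.033 to 0.11 at 8 h against 0 h, and -0.12 to 0.044 from 4 h to 8 h. In T-47D cells ALPPL2 gave -0.16 to 1.26 at 2 h and -0.56 to 1.69 at 4 h against 0 h, then -1.21 to 1.05 from 2 h to 4 h, -0.47 to 1.23 from 2 h to 8 h and -0.71 to 1.63 from 4 h to 8 h. ALPL gave -1.11 to 5.87, -0.012 to 6.97 and -0.67 to 6.40 against 0 h, -0.52 to 1.13 from 2 h to 8 h and -1.61 to 0.032 from 4 h to 8 h. Between the lines at 0 h, ALPL gave -10.37 to -3.40, ALPPL2 -5.18 to -4.12 and ALPI -3.19 to 3.34. The ALPI interaction gave -13.35 to -6.83 at 4 h and -13.25 to -6.72 at 8 h. It lost both calls without T-47D 0 h replicate 1, and the 4 h call also without either T-47D 4 h replicate. The ALPL interaction gave -1.26 to 5.71, -0.087 to 6.89 and -0.72 to 6.35, and passed at 4 h and 8 h without T-47D 0 h replicate 1, where the remaining 0 h library was at 0. The T-47D values rest on at most 18 counts per library and gene, in libraries as deep as those of the other line.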
